A study of Mus musculus with 8 samples.

Results

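The genes described here are 10 circadian clock and clock output genes of the mouse liver: Clock, Per1, Per2, Per3, Cry1, Nr1d1, Nr1d2, Dbp, Tef and Nfil3. They were chosen with earlier results of these data known. Of these 10, 9 had a row among the 19055 genes of the deposited table, and Per3 was not analysed here. All 9 passed the filter on low values, which asks for 10 normalized reads or more in 3 or more libraries, as did 13704 genes in all. RNA was measured by 3′ tag sequencing in livers of mice 8 to 9 weeks old, collected 48 hours after partial hepatectomy. There were 5 liver libraries of genotype URI(+/D)Hep and 3 of genotype URI(+/+)Hep, the wild-type littermates. A library is also called a liver below, as a shorthand that does not say it came from 1 animal. In the URI(+/D)Hep mice URI was deleted in hepatocytes by a CreERT2 recombinase under serum albumin sequences, and the notation keeps a wild-type allele. The treatment protocol gives 1 week of tamoxifen for the libraries of both genotypes. Other liver cells are not targeted by this driver. The labels give no time of day for the surgery or the collection, and they do not say that each library is a separate mouse, so p-values measure the spread between these libraries.

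The clock of each cell is a transcriptional loop. CLOCK and its partner BMAL1 (gene Arntl) activate genes with an E-box, among them those for the repressors PER and CRY, which return to block CLOCK and BMAL1. REV-ERB alpha and beta, encoded by Nr1d1 and Nr1d2, repress Arntl, Nfil3 and other genes in a coupled loop. The PAR bZIP activators DBP, TEF and HLF and the repressor NFIL3 compete for the D-box and carry the rhythm to liver metabolism. In livers of night-active mice, Nr1d1, Dbp, Tef, Nr1d2 and Per1 are known to reach their highest mRNA level between the middle of the day and dusk. Per2 follows early in the night, and Cry1, Nfil3 and Clock are highest late in the night or towards dawn, together with Arntl and Npas2. The day and dusk genes and the late night genes therefore tend to be high at different times. Peaks within a class are spread over some hours, so its members need not move together at every hour.

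The elements through which this loop works stand in the promoters of some of these genes, and the stretches that hold them are shown because the loop is wired through them. RefSeq promoters of build GRCm38.p6 were searched over the 250 bases before each transcription start, in 13 windows of 9 members, Per2 having no entry. The E-box was searched as CACGTG, which reads the same on both strands, and the D-box as TTATGTAA or TTACGTAA on both strands. An E-box lay in windows of Per1, Cry1 and Tef, against 6.86% of all genes with a window, and 2 D-boxes lay in that of Per3, against 1.1% of genes with at least 1. Capitals mark the element, and each line runs 5′ to 3′ on the strand of the gene.
Per1, E-box 166 bases before the start, chr11:69098758-69098813, plus strand: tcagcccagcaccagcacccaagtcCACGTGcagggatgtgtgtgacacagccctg
Cry1, E-box 60 bases before the start, chr10:85185084-85185139, minus strand: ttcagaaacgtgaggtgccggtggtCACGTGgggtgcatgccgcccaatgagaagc
Tef, first start, E-box 127 bases before it, chr15:81802521-81802576, plus strand: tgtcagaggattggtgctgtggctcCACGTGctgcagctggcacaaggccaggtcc
Tef, other start, E-box 138 bases before it, chr15:81811251-81811306, plus strand: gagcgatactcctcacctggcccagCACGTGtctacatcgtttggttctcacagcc
Per3, D-box 205 bases before the start, chr4:151044838-151044895, minus strand: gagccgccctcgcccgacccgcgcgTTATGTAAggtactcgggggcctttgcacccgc
Per3, D-box 158 bases before the start, chr4:151044791-151044848, minus strand: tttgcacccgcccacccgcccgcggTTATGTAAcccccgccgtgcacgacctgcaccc
A match describes the letters, not bound protein, and no match in the other windows says only that these letters are not in them.

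The libraries held between 3838674 and 4800694 recovered reads. Uri1, the targeted gene, stood at 384 ± 42.7 normalized reads in URI(+/D)Hep livers and 384 ± 79.3 in URI(+/+)Hep livers (SD, n = 5 and 3). These values do not show the deletion. A 3′ tag outside the deleted part need not show it, but the reason was not tested. Hepatocyte markers, 8 of 8 measured with none at 0, summed to 38628 to 43154 in URI(+/D)Hep livers and 37889 to 45355 in URI(+/+)Hep livers. Their members differed. Groups did not overlap for 2 of the 8, Cps1 and Apob, against 13.4% of all genes tested. The log2 fold changes were 1.03 for Cps1 and 0.62 for Apob, while those of Alb, Apoa1 and Ahsg lay between -0.36 and -0.19. Of the 8, 0 were called, against 0.0146% of all genes tested. Xist stood at 1217 or more in all URI(+/D)Hep libraries and at 9.59, 2.95 and 1298 in URI(+/+)Hep 1 to 3, and reads of Y-linked genes were near 0 in URI(+/D)Hep 1, so sex transcripts are not balanced between the groups. URI(+/+)Hep 1 stood apart from the rest: it was the highest or the lowest library for 52.4% of all genes tested, against 13.3 to 30.6% for each of the other 7. Markers of dividing cells, 6 of 6 measured, summed to 308 in URI(+/D)Hep 5 and 194 in URI(+/+)Hep 1, against 1265 to 2406 in the other 6 libraries. In bulk tissue, fewer cells of a type and less RNA per cell cannot be told apart.

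No clock or output gene passed the test between the genotypes. With limma, 0 of the 9 members had a Benjamini-Hochberg adjusted p under 0.05, the threshold for a call, where 0.0146% of all genes tested were called. At an unadjusted p under 0.05 the count was 0 of 9, against 17.7% of all genes. The ranges of the 2 groups overlapped for each of the 9, while they did not overlap for 13.4% of all genes. With edgeR and with DESeq2 on recovered reads, 0 of 9 were called as well, and DESeq2 gave 1 member no adjusted p. Over all genes edgeR called 3 and DESeq2 612, against 2 with limma. The members' log2 fold changes, URI(+/D)Hep over URI(+/+)Hep on the log2(value + 1) scale, ran from -0.52 for Nfil3 to 0.80 for Dbp. Their median was 0.04, against -0.0019 over all genes tested, and 5 were positive and 4 negative.

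**Figure D1:**
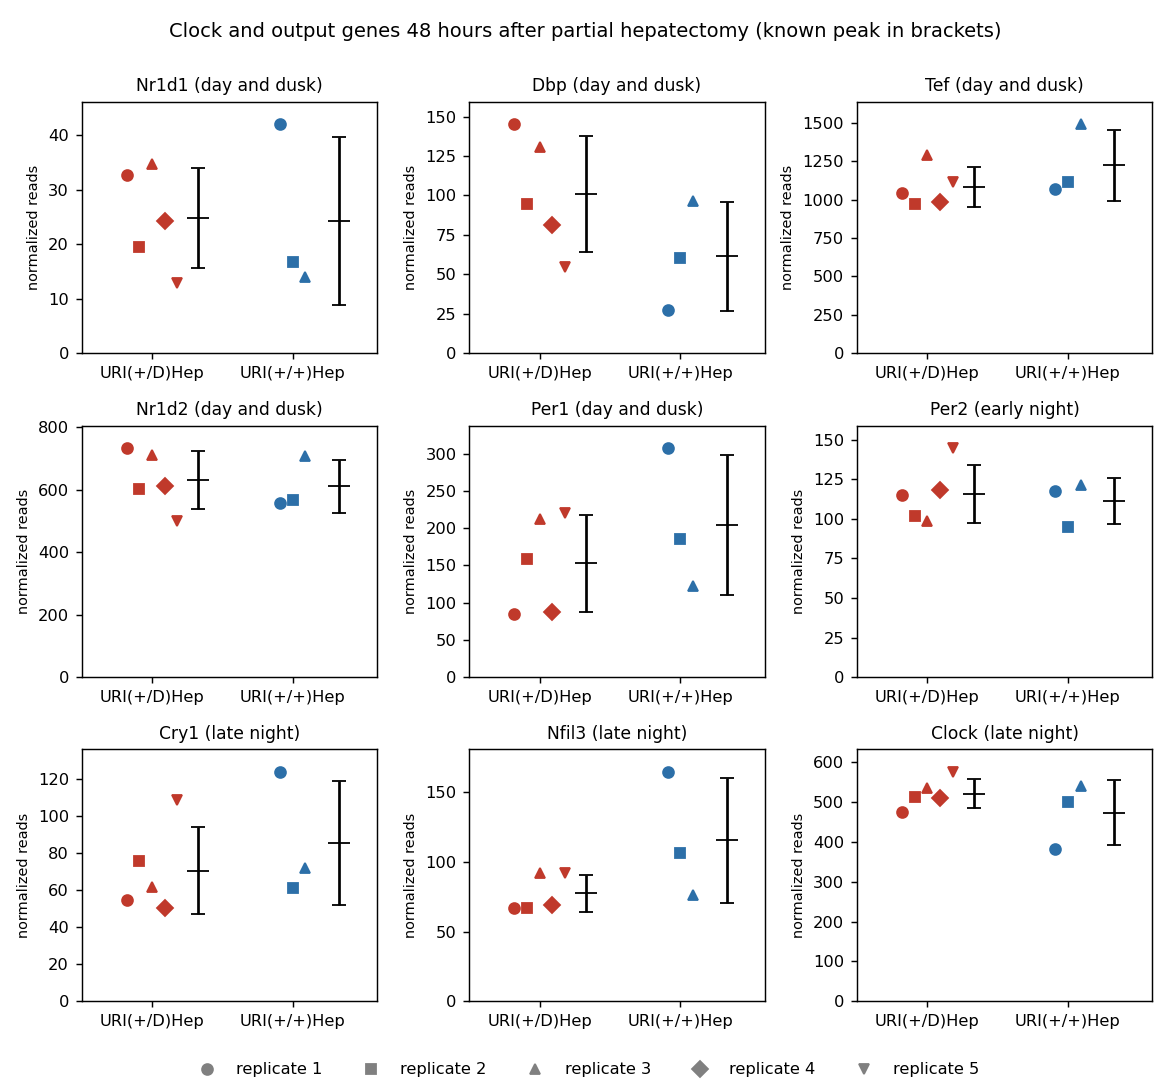
Normalized reads (vertical axis, from 0) of each of the 9 measured members in 5 URI(+/D)Hep libraries (red, left) and 3 URI(+/+)Hep libraries (blue, right), with the marker shape giving the replicate number and the black bar the mean ± SD. The ranges overlap in every panel, and URI(+/+)Hep 1 is the highest or lowest library of both groups in 6 of the 9 panels.

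Clock encodes the DNA-binding partner of BMAL1 and had the smallest SD of log2 values over the 8 libraries among the members, 0.18. It stood at 475, 513, 534, 509.6 and 575 normalized reads in URI(+/D)Hep 1 to 5, and at 381, 499 and 539.6 in URI(+/+)Hep 1 to 3. URI(+/+)Hep 1 alone was low, and the other 7 libraries lay close together. The log2 fold change was 0.15 (adjusted p = 0.574 by limma, SE 0.13), with a 95% interval of 0.908- to 1.36-fold. Arntl, which encodes BMAL1, averaged 133 ± 27.8 in URI(+/D)Hep livers and 191 ± 85.5 in URI(+/+)Hep livers, with its highest value, 278, in URI(+/+)Hep 1. Npas2, a paralogue of Clock, ranged from 10.2 to 23.4 in URI(+/D)Hep livers and from 21.6 to 27.9 in URI(+/+)Hep livers. Their log2 fold changes were -0.44 for Arntl and -0.58 for Npas2, with limma adjusted p-values of 0.462 and 0.398.

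Among the repressors of the loop, Per1 and Cry1 had the same 2 lowest libraries, URI(+/D)Hep 1 and 4, and the same 2 highest, URI(+/D)Hep 5 and URI(+/+)Hep 1, while Per2 varied little. Per1, whose mRNA also responds quickly to hormones and stress, stood at 84.9, 158, 213, 88.1 and 221 normalized reads in URI(+/D)Hep 1 to 5, and at 307, 185 and 122 in URI(+/+)Hep 1 to 3. It was lowest in URI(+/D)Hep 1 and 4 and highest in URI(+/+)Hep 1, and its SD was 5.41 times the counting error in URI(+/D)Hep livers and 6.23 times in URI(+/+)Hep livers. The log2 fold change was -0.43 (adjusted p = 0.613 by limma, SE 0.40), -0.094 without URI(+/+)Hep 1 and -0.75 without URI(+/+)Hep 3. Per2, its paralogue, stood at 115, 102, 98.6, 118 and 144 in URI(+/D)Hep 1 to 5, and at 118, 94.5 and 121 in URI(+/+)Hep 1 to 3. Per2 had an SD of 1.74 and 1.31 times the counting error in the URI(+/D)Hep and URI(+/+)Hep livers, and its 95% interval was 0.805- to 1.33-fold. Cry1, a cryptochrome that blocks CLOCK and BMAL1, stood at 54.8, 75.9, 61.9, 50.6 and 109 in URI(+/D)Hep 1 to 5, and at 124, 61.05 and 71.9 in URI(+/+)Hep 1 to 3. URI(+/+)Hep 1 and URI(+/D)Hep 5 were the highest, and the other 6 libraries lay at 75.9 or below. The log2 fold change of Cry1 was -0.27 (adjusted p = 0.684 by limma, SE 0.30).

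Other repressors of CLOCK and BMAL1 did not pass the test either. Cry2, the second cryptochrome, averaged 174 ± 34.4 in URI(+/D)Hep livers and 145 ± 23.4 in URI(+/+)Hep livers, and Bhlhe40, which encodes DEC1, 619.9 ± 71.3 and 678 ± 227. Ciart, which encodes CHRONO, stood between 6.19 and 21.3 in URI(+/D)Hep livers and between 11.8 and 21.6 in URI(+/+)Hep livers. Bhlhe41 ranged from 6.92 to 25.1 and from 8.39 to 20.7. Cipc, a CLOCK-interacting repressor, averaged 90.5 ± 14.7 and 83.8 ± 12.9. Values of Ciart and Bhlhe41 rest on few reads. In the list of other clock genes, 0 of 9 measured genes were called in either direction, against 0.0146% of all genes tested. Groups that did not overlap were found for 0 of 9, against 13.4% of all genes tested. The median log2 fold change was -0.06.

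Of the REV-ERB genes, Nr1d1 varied several-fold and Nr1d2 little. Nr1d1 stood at 32.7, 19.4, 34.8, 24.4 and 12.9 normalized reads in URI(+/D)Hep 1 to 5, and at 41.97, 16.7 and 13.9 in URI(+/+)Hep 1 to 3. These values rest on 13 to 37 reads, so that neighbours in this order are not separated: the 95% Poisson interval, which covers counting error only, was 6.85 to 22.0 for URI(+/D)Hep 5 and 29.2 to 58.4 for URI(+/+)Hep 1. The log2 fold change was 0.12 (adjusted p = 0.914 by limma, SE 0.43), and the 95% interval ran from 0.554- to 2.12-fold. Exons of Nr1d1 overlap those of Thra, a thyroid hormone receptor gene on the opposite strand, over 263 bases in GENCODE M21. The library kit keeps the strand, but no source used here gives the strand setting of the counting, so reads of the pair may be mixed, and Thra stood at 142 to 214 against 175 to 215. Nr1d2 stood at 733, 602, 712, 613 and 501 in URI(+/D)Hep 1 to 5, and at 559, 567 and 708 in URI(+/+)Hep 1 to 3. Its log2 fold change was 0.04 (SE 0.15), with a 95% interval of 0.820- to 1.30-fold. Rora, which encodes an activator that competes with REV-ERB for the same element, averaged 2129 ± 165 in URI(+/D)Hep livers and 2016 ± 244 in URI(+/+)Hep livers.

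Dbp, the PAR bZIP activator with the deepest known rhythm in liver, had the widest spread of the members. It stood at 145, 94.4, 130.5, 81.5 and 54.4 normalized reads in URI(+/D)Hep 1 to 5, and at 27.6, 60.1 and 96.6 in URI(+/+)Hep 1 to 3. URI(+/D)Hep 1 and 3 were above all other libraries, URI(+/+)Hep 1 was below all others, and the groups overlapped. The highest library held 5.26 times the lowest, and the SD over the 8 libraries, 0.76 on the log2 scale, was larger than that of 90.4% of all genes tested. Its log2 fold change was 0.80 (adjusted p = 0.360 by limma, SE 0.42) with an interval of 0.896- to 3.38-fold, and it was 0.32 without URI(+/+)Hep 1. Exons of Dbp overlap those of Sphk2, a sphingosine kinase gene on the opposite strand, over 539 bases in GENCODE M21. Sphk2 stood at 189 to 249 in URI(+/D)Hep livers and 231 to 337 in URI(+/+)Hep livers, with its highest value in URI(+/+)Hep 1, where Dbp was lowest.

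The 2 other PAR bZIP genes were steadier. Tef stood at 1044, 969, 1288, 982 and 1114 normalized reads in URI(+/D)Hep 1 to 5, and at 1072, 1112 and 1489 in URI(+/+)Hep 1 to 3. URI(+/+)Hep 3 and URI(+/D)Hep 3 were the highest, and the log2 fold change was -0.17 (adjusted p = 0.556 by limma, SE 0.14, interval 0.710- to 1.11-fold). Hlf averaged 558 ± 100.1 in URI(+/D)Hep livers and 537 ± 53.1 in URI(+/+)Hep livers. The SD over the 8 libraries was 0.21 for Tef and 0.23 for Hlf, against a median of 0.31 over all genes tested.

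Nfil3, the repressor at the D-box, had the smallest p of the members. It stood at 67.2, 66.7, 91.8, 69.3 and 91.98 normalized reads in URI(+/D)Hep 1 to 5, and at 164, 106 and 76.2 in URI(+/+)Hep 1 to 3. URI(+/+)Hep 1 and 2 lay above all other libraries, and URI(+/+)Hep 3 lay within the range of the URI(+/D)Hep livers. The log2 fold change was -0.52 (SE 0.25, limma unadjusted p = 0.0657, adjusted p = 0.314), with a 95% interval of 0.474- to 1.03-fold. Without URI(+/+)Hep 1 it was -0.23. URI(+/+)Hep 1 and 2 are also the libraries with almost no Xist. In the 5 libraries holding Xist as well as Y-linked reads, URI(+/+)Hep 3 is the lone control, whose spread is taken from the other genotype. There the log2 fold change was 0.053 for Nfil3 and -0.16 for Dbp. What sex transcripts contribute to either difference was not tested.

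**Figure D2:**
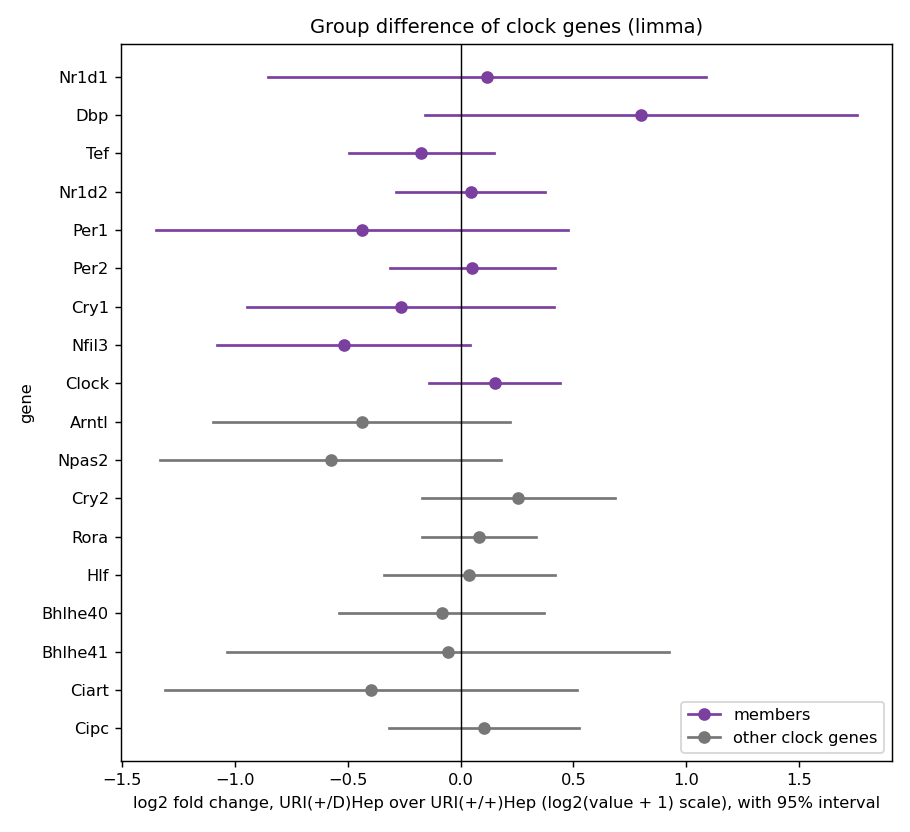
Log2 fold change, URI(+/D)Hep over URI(+/+)Hep (horizontal axis, log2(value + 1) scale), with its 95% interval from limma for the 9 members (purple) and 9 other clock genes (grey). Every interval includes 0, and Dbp at 0.80 and Nfil3 at -0.52 lie farthest out among the members.

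The libraries were next compared by the known time of each gene's peak. In URI(+/D)Hep 1, 3 of the 5 measured day and dusk members lay above their mean over the 8 libraries and 0 of the 3 late night members did. URI(+/D)Hep 5 showed the opposite, with 1 of 5 day and dusk members and 3 of 3 late night members above their mean. Of these 3, Nfil3 was above by only 0.068 on the log2 scale. URI(+/D)Hep 3 had 5 of 5 and 2 of 3 above, so that both classes were mostly high. For URI(+/D)Hep 2 the counts were 2 of 5 and 2 of 3, and for URI(+/D)Hep 4 they were 2 of 5 and 1 of 3. In URI(+/+)Hep 1, 2 and 3 the counts were 2, 1 and 3 of 5 day and dusk members, and 2, 1 and 1 of 3 late night members. The median deviation from the mean, on the log2 scale, was 0.24 for day and dusk members and -0.38 for late night members in URI(+/D)Hep 1, and -0.30 and 0.20 in URI(+/D)Hep 5. In URI(+/+)Hep 1 these medians were -0.07 and 0.76, the widest gap of the 3 libraries.

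URI(+/+)Hep 1 was split within the classes. Dbp was 1.46 below its mean on the log2 scale, while Cry1, Nfil3 and Arntl were 0.76, 0.90 and 0.92 above theirs. In the same library, however, Nr1d1 and Per1, which are known to peak in the day or at dusk like Dbp, were 0.86 and 0.95 above their means, and Clock was 0.39 below. Day and dusk members were split in other libraries too. URI(+/D)Hep 1 had deviations of 0.90 for Dbp and 0.51 for Nr1d1 but -0.89 for Per1. URI(+/D)Hep 5 had -0.50 for Dbp and -0.77 for Nr1d1 but 0.48 for Per1. Of the 9 members, 6 had URI(+/+)Hep 1 as their highest or lowest library, or 66.7%, against 52.4% of all genes tested, so that standing apart in this library was common to genes of many kinds.

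**Figure D3:**
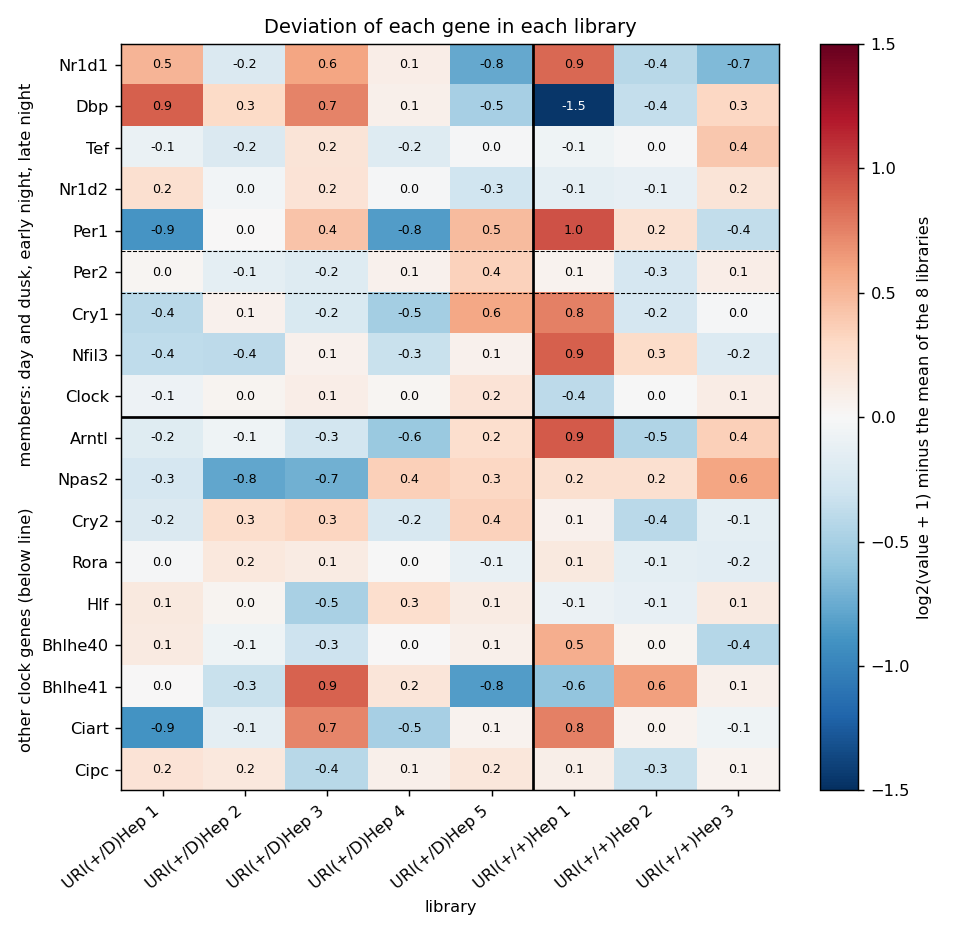
Deviation of log2(value + 1) from the gene's mean over the 8 libraries (colour and printed value) for the 9 members, above the thick line in the order day and dusk, early night and late night, and for 9 other clock genes below it. The 5 URI(+/D)Hep libraries stand left of the 3 URI(+/+)Hep libraries. URI(+/+)Hep 1 shows Dbp low and Cry1, Nfil3 and Arntl high, with Nr1d1 and Per1 also high.

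Ratios of (value + 1) were taken within each library, and because of the added 1 they are not wholly free of its scaling, most so for a low gene such as Nr1d1. The log2 ratio of Dbp to Nfil3, an activator and a repressor of the same element, was 1.098, 0.50, 0.50, 0.23 and -0.75 in URI(+/D)Hep 1 to 5, and -2.53, -0.81 and 0.34 in URI(+/+)Hep 1 to 3. It spanned 3.63 log2 units, and the groups overlapped. The log2 ratio of Dbp to Cry1 was 1.39, 0.31, 1.06, 0.68 and -0.99 in URI(+/D)Hep 1 to 5, and -2.12, -0.023 and 0.42 in URI(+/+)Hep 1 to 3. URI(+/+)Hep 1 and URI(+/D)Hep 5 were at the low end of the Dbp to Cry1 ratio and of the Dbp to Arntl ratio, which stood at -1.67 in URI(+/D)Hep 5 and -3.29 in URI(+/+)Hep 1. They are also the 2 libraries with the least Mki67, a marker of dividing cells, at 49.5 normalized reads in URI(+/D)Hep 5 and 23.99 in URI(+/+)Hep 1, against 268 to 586 in the other 6. With both left out, the log2 fold change was 0.52 for Dbp, -0.30 for Nfil3 and -0.14 for Cry1, and 0 of 9 members were called. The part of cell division in these ratios was not tested. Cholangiocyte markers, 6 of 6 measured with Krt19 at 0 in at least 1 library, summed to 1169 in URI(+/D)Hep 5, 1659 in URI(+/+)Hep 1 and 1068 in URI(+/+)Hep 2, against 233 to 375 in the other 5. Different genes carried these high sums. URI(+/D)Hep 5 was high in Epcam and Cftr, at 525 and 283, with Sox9 at 152 and Spp1 at 122. URI(+/+)Hep 1 and 2 were high in Sox9, at 1141 and 631, and in Spp1, at 458 and 377. Their Epcam stood at 28.8 and 27.6 and their Cftr at 15.6 and 17.7. Neutrophil markers, 8 of 8 measured with Ly6g at 0 in at least 1 library, summed to 306 to 904 in URI(+/D)Hep livers and 551 to 1205 in URI(+/+)Hep livers. Summed endothelial markers, 7 of 7 measured with none at 0, stood at 2230 to 2488 in URI(+/D)Hep livers and 1668 to 2101 in URI(+/+)Hep livers, without overlap. Summed B cell markers, 4 of 6 measured with Pax5 at 0 in at least 1 library, stood at 75.0 to 131 and at 10.8 to 64.4, also without overlap. By gene, groups did not overlap for 2 of 7 endothelial markers and 1 of 3 tested B cell markers, against 13.4% of all genes tested. The groups overlapped in the sums of Kupffer cell and macrophage, stellate cell, and T and NK cell markers. The part of these cell types in the ratios and in the group differences was not tested.

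The ratio of Nr1d1 to Cry1 gave another order. It was -0.73, -1.91, -0.81, -1.02 and -2.99 in URI(+/D)Hep 1 to 5, and -1.53, -1.81 and -2.29 in URI(+/+)Hep 1 to 3. URI(+/D)Hep 5 was again the lowest and URI(+/D)Hep 1 the highest, but URI(+/+)Hep 1 lay in the middle. The ratio of Nr1d1 to Dbp lay between -2.22 and -1.70 in the 5 URI(+/D)Hep livers, and at 0.59, -1.78 and -2.71 in URI(+/+)Hep 1 to 3. The 3 URI(+/+)Hep livers spanned 3.29 log2 units, with URI(+/+)Hep 1, the library that stood apart, at the upper end. Nr1d1 rests on 13 to 37 reads per library, so counting error limits how closely this ratio can be read. The difference in spread between the groups was not tested. No source used here gives the collection times, and the part of time of day in these differences was not tested.

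**Figure D4:**
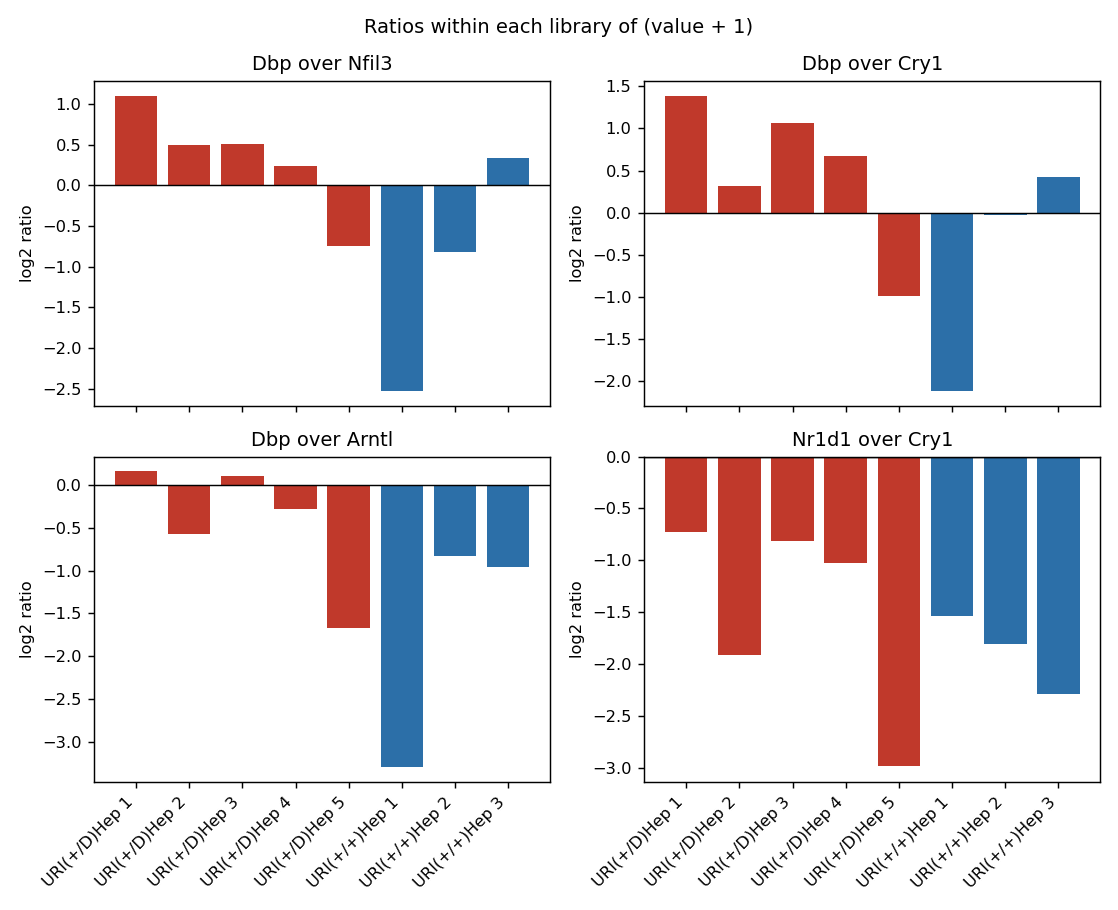
Log2 ratio of 2 genes' (value + 1) within each library (vertical axis), for 5 URI(+/D)Hep libraries (red) and 3 URI(+/+)Hep libraries (blue). URI(+/+)Hep 1 is lowest in the 3 ratios with Dbp, down to -3.29 for Dbp over Arntl, while URI(+/D)Hep 5 is lowest for Nr1d1 over Cry1 at -2.99.

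Per1 was set beside genes known to be raised by glucocorticoids. Of the 8 genes of that list, Per1 among them, 0 were called in either direction, against 0.0146% of all genes tested. All 8 log2 fold changes were negative, with a median of -0.35, against -0.0019 over all genes tested. URI(+/+)Hep 1, the library that stood apart, was the highest for 7 of the 8. It was the highest for 3716 of all 13704 genes tested. The 3 genes with the smallest p were Dusp1, a phosphatase, at 118 ± 13.6 in URI(+/D)Hep livers and 153 ± 57.3 in URI(+/+)Hep livers, Zbtb16, a transcription factor, at 955 ± 364 and 1273 ± 401, and Sgk1, a kinase, at 123 ± 34.5 and 166 ± 77.3 (limma adjusted p = 0.473, 0.546 and 0.556). The order of the libraries was looked at after the values were seen. The 3 libraries with the least Per1, URI(+/D)Hep 1 and 4 and URI(+/+)Hep 3, were also the 3 lowest for Fkbp5, Sgk1, Zbtb16, Tat and Pdk4, which is 5 of the 7 other genes, against 7.21% of all genes tested. Pdk4, a kinase that restrains glucose oxidation in fasting, stood at 10.6 and 8.43 in URI(+/D)Hep 1 and 4 and at 15.02 in URI(+/+)Hep 3, and at 72.2 to 245 in the other 5 libraries. Tsc22d3 and Dusp1 did not follow this order. The same 3 libraries, drawn from both genotypes, also had the highest summed markers of dividing cells, 2389, 2406 and 2285 in URI(+/D)Hep 1, URI(+/D)Hep 4 and URI(+/+)Hep 3. Neither the part of hormones nor that of cell division in the level of Per1 was tested.

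**Figure D5:**
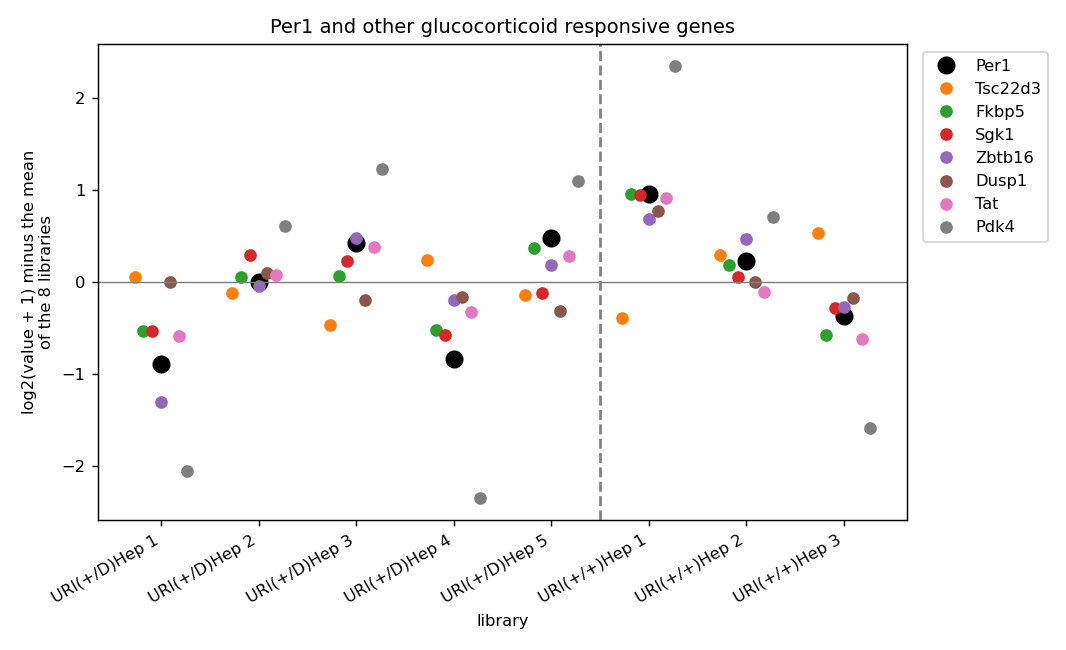
Deviation of log2(value + 1) from the gene's mean over the 8 libraries (vertical axis) for Per1 (large black points) and 7 other glucocorticoid responsive genes, with 5 URI(+/D)Hep libraries left and 3 URI(+/+)Hep libraries right of the dashed line. In URI(+/D)Hep 1 and 4 and URI(+/+)Hep 3 Per1 lies below its mean together with Fkbp5, Sgk1, Zbtb16, Tat and Pdk4.

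Genes known for a daily rhythm in mouse liver that lie downstream of the clock were examined as a list. Of 15 measured genes, 0 were called in either direction, against 0.0146% of all genes tested. At an unadjusted p under 0.05, 3 were higher and 0 lower, where 17.7% of all genes tested had such a p. The median log2 fold change was 0.18. The groups did not overlap for 2 of the 15, close to the share of all genes tested, 13.4%. The 3 genes with the smallest p are given as values. Gys2, the liver glycogen synthase and a known target of CLOCK, stood at 403, 402, 382, 306 and 366 in URI(+/D)Hep 1 to 5, and at 227, 211 and 252 in URI(+/+)Hep 1 to 3. Each URI(+/D)Hep liver lay above each URI(+/+)Hep liver, with a log2 fold change of 0.69 (adjusted p = 0.108 by limma, SE 0.12). Coq10b, a coenzyme Q binding protein, averaged 167 ± 10.4 in URI(+/D)Hep livers and 116 ± 27.4 in URI(+/+)Hep livers (log2 fold change 0.54, limma adjusted p = 0.138). Alas1, the rate-limiting enzyme of heme synthesis and a known target of the PAR bZIP factors, averaged 1217 ± 168 and 930.4 ± 144 (log2 fold change 0.39, limma adjusted p = 0.219). None of the 3 differences passed the adjusted threshold.

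The genes most like Dbp and Nfil3 in their pattern were found by the root mean square difference of centred log2 values over the 8 libraries, among tested genes outside the clock lists. Closest to Dbp were Clec2d at 0.20, Lrp2bp at 0.22 and Gm49817 at 0.23 log2 units. Clec2d, which encodes a C-type lectin, stood at 162, 155, 208, 152 and 89.01 in URI(+/D)Hep 1 to 5, and at 39.6, 99.4 and 161 in URI(+/+)Hep 1 to 3. Closest to Nfil3 were Eif1a at 0.082, Serinc3 at 0.088 and Lrg1 at 0.092. Lrg1, which encodes a secreted acute phase glycoprotein, stood at 2858, 2930, 3329, 2715 and 3410 in URI(+/D)Hep 1 to 5, and at 6711, 4548 and 3047 in URI(+/+)Hep 1 to 3. All 6 genes have their highest or lowest library in URI(+/+)Hep 1, as Dbp and Nfil3 do, and they were picked as the closest of all tested genes, so the likeness is a description with no test.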

How the data were processed

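The authors deposited 1 table of normalized signal, in which each library's reads per gene carry a common scale factor. Build GRCm39 and the tools featureCounts, bcl2fastq and DESeq2 come from the submitters' processing notes. No source used here gives the aligner, annotation, strand setting or use of molecular identifiers. Each library came out as whole multiples of its smallest value above 0 (tolerance 1e-06, 100% of values), which gave the recovered reads; that step is close to 1 in URI(+/D)Hep 5, so its reads are less certain.

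limma 3.58.1 was run on log2(value + 1) (mean-variance trend, Benjamini-Hochberg adjustment over 13704 genes) in R 4.3.3, on all 8 libraries, and checked on simulated data. The simulation gave every gene the same spread beyond counting error and held no library that stood apart. It therefore does not tell what size of change could be found in these data. The log2(value + 1) scale understates changes of low genes. Alternatives included edgeR 4.0.16 and DESeq2 1.42.0 on recovered reads; added after seeing the data were count tests on 7 libraries and a fit of the 5 libraries holding Xist as well as Y-linked reads (each at least 100).

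Members and lists were chosen with earlier results of these data known. Named genes were all members, the other measured clock genes (1 is not reported here), the 3 smallest p per further list, and the 3 genes closest in pattern to Dbp and to Nfil3. Any other gene was picked with its values in view.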

Additional observations from a re-analysis of the deposited data

Results flagged for a closer look

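Among 20 clock and reference genes examined in the 5 URI(+/D)Hep libraries, 1 had a library far from the others. Cipc, the CLOCK-interacting repressor, stood at 64.8 in URI(+/D)Hep 3, where the next lowest library of that genotype stood at 91.8 and the highest at 101. The gap was 0.751 of the group's range, above Dixon's critical value of 0.71. About 1 in 20 groups is set apart in this way by chance. None of the 9 members was.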

How the results depend on the processing

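Across 23 alternative settings no member was called in any of 206 values, the smallest adjusted p being 0.132 for Nfil3 without URI(+/+)Hep 3, and DESeq2 left 1 member without an adjusted p. Against 2 genes called over all genes, the count was 4 with a mean of at least 50, 1 without both URI(+/+)Hep 1 and URI(+/D)Hep 5, 612 with DESeq2 and 378 with DESeq2 on 7 libraries. It was 0 with quantile normalization, without the trend, with a covariate for Y-linked reads, with edgeR on 7 libraries, in the 5 libraries holding Xist as well as Y-linked reads, and with the replicate block. Leaving out each library gave 0 to 34, the 34 without URI(+/+)Hep 3. The sign of a member turned in 22 values. With the replicate block Per2 had a log2 fold change of -0.074. Without both named libraries Clock had -0.032. With that covariate Per1 had 0.06 and Nr1d2 -0.087. On recovered reads of 7 libraries Per2 had -0.038 with edgeR and -0.029 with DESeq2. In the 5 libraries Clock had -0.02, Per1 0.38, Per2 -0.083, Nr1d2 -0.23, Dbp -0.16 and Nfil3 0.053. Leaving out each library gave -0.47 to 0.03 for Cry1, -0.18 to 0.58 for Nr1d1, -0.017 to 0.15 for Nr1d2 and -0.06 to 0.12 for Per2. The cause of these turns was not tested. Deviations from the group means had correlations of -0.40, -0.04 and -0.27 between same-numbered libraries of the 2 genotypes (numbers 1, 2 and 3). Over all pairs of libraries across the genotypes these ran from -0.54 to 0.54. With so few libraries they cannot decide whether the numbers pair them. Depth limits Nr1d1, Npas2, Ciart and Bhlhe41 most.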

Other observations

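Genes whose products control the stability of clock proteins were also measured. Of 9 such genes with values 8 passed the filter, and 0 were called, against 0.0146% of all genes tested. At an unadjusted p under 0.05, 1 was higher, where 17.7% of all genes tested had such a p. Btrc, a ubiquitin ligase subunit that targets PER, stood at 283, 282, 276, 266 and 295 normalized reads in URI(+/D)Hep 1 to 5, and at 156, 222 and 237 in URI(+/+)Hep 1 to 3, without overlap of the groups, as for 13.4% of all genes tested (log2 fold change 0.47, SE 0.14, limma adjusted p = 0.152). Usp2, a deubiquitinase, stood at 209.7 to 268 in URI(+/D)Hep livers, against 55.2, 206 and 294 in URI(+/+)Hep 1 to 3. Csnk1d, the casein kinase that phosphorylates PER, averaged 723 ± 92.6 and 798 ± 135.

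Rhythmic liver genes with the widest ranges were picked with their values in view. Inmt stood at 246 to 1120 in URI(+/D)Hep livers, against 8.39, 501 and 765 in URI(+/+)Hep 1 to 3. Cyp7a1, the rate-limiting enzyme of bile acid synthesis, stood at 299, 139, 42.5, 311 and 47.5 in URI(+/D)Hep 1 to 5, against 2.40, 219.6 and 958 in URI(+/+)Hep 1 to 3. Its 2.40 in URI(+/+)Hep 1 is below the level of 3 reads there, 3.60. Elovl3 stood at 20.3 or less in URI(+/D)Hep livers and at 63.6, 62.03 and 6.44 in URI(+/+)Hep 1 to 3, the first 2 of which hold almost no Xist.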
